A study of Mus musculus with 16 samples.

Results

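The replication-dependent histone genes encode the core histones H2A, H2B, H3 and H4, around which DNA is wound, and the linker histone H1, which binds DNA between nucleosomes. All 67 symbols of the form Hist followed by a cluster number and the letter h were taken, out of 31053 gene identifiers in the deposited matrices. They comprised 6 H1, 18 H2A, 18 H2B, 12 H3 and 13 H4 genes, with the class read from the symbol.

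Most messenger RNAs of these genes are made in S phase, when new chromatin needs histones, and end in a short stem-loop instead of a poly(A) tail. The stem-loop is bound by SLBP, and the message is degraded when DNA synthesis stops. Several of the genes can also be read through to a polyadenylation site downstream, and such polyadenylated histone messages are known from cells that leave the cycle or differentiate. A 3′ single-cell assay primes on poly(A), so its histone tags are a view of the polyadenylated messages and not of the total histone RNA.

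The tags came from tumour organoids of the mouse colon, induced by AOM/DSS, that is azoxymethane with dextran sodium sulfate. One group was the control, with the genotype KMT9wt/wt and the label minus TAM, and the other the knockout, with the genotype KMT9ko/ko and the label plus TAM. Both groups are at passage 14, the names of the deposited tables give day 5, and the labels do not spell TAM out. Libraries were 10x Chromium 3′ version 2, and the 8 records per group are treated here as 1 library, since they share 1 deposited matrix. With 1 library a group no test was made, and an effect of TAM and an effect of the knockout cannot be told apart.

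The analysis kept 2629 cells of the control and 1481 of the knockout, holding 68605296 and 37358097 UMIs (unique molecular identifiers, 1 for each captured molecule) and medians of 24603 and 24184 UMIs per cell. The targeted gene N6amt1, which encodes KMT9alpha, had 34.1 CPM (UMIs per 1000000 UMIs of the summed cells) in control cells, and 6.13 CPM in knockout cells. All 10 epithelial markers were present in both libraries, with sums of 14162 and 15486 CPM. Immune markers summed to 10.5 and 14.6 CPM, nearly all of it Cd68, and 2 and 4 of the 8 were at 0. Fibroblast markers summed to 0.117 and 0.268 CPM with 6 and 7 of 8 at 0, and endothelial markers to 7.65 and 17.9 CPM, nearly all of it Cdh5, with 3 and 2 of 6 at 0. The matrices shared 498 cell barcodes, which were those of 167 kept control cells and 324 kept knockout cells, so the main values are also given without these cells.

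The annotated 3′ ends of these genes are shown first, because a tag needs a poly(A) stretch at or near the end of the counted transcript. In the transcripts of the histone genes a 16-base stem-loop core was searched after the coding sequence. With 15 letters fixed as in the core of Hist1h1c printed here, and any base at position 10 from its 5′ end, it was found in 32 of 67 genes. A looser form, with 10 letters fixed and set after the H4 genes were seen to differ, was found in 45 of 67, while the strict and the loose form occur in 0.0629% and 0.355% of 58797 protein-coding transcripts of GENCODE release M21. The core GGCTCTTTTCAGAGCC was found in 25 genes and the core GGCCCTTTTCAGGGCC in 7 genes, all of them H4. The stem-loops of the measured genes are printed as transcript sequence in DNA letters on GRCm38, 5′ to 3′. The core is in capitals, with up to 5 bases on either side. They mark the place from which the distance to the annotated transcript end is counted below.
Hist1h1c, chr13:23739507-23739532, plus strand: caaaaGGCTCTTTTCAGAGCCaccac
Hist3h2a, chr11:58955167-58955192, plus strand: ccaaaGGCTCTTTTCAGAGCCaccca
Hist1h2ac, chr13:23683472-23683497, minus strand: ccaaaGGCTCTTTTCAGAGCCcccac
Hist1h2ap, chr13:21833026-21833049, minus strand: aaaaaGGCTCTTTTCAGAGCCatc
Hist1h4i, chr13:22040961-22040986, minus strand: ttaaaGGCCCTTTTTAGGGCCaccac
Hist1h4h, chr13:23531453-23531478, plus strand: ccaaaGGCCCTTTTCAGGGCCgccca

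The annotated transcript of Hist1h2ap stopped 3 bases after its stem-loop core, as a classical histone message does. The transcript ran on for 46 bases after the core in Hist1h4h, 330 in Hist1h4i, 840 in Hist1h1c, 1643 in Hist3h2a and 2010 in Hist1h2ac. Hist1h2bc, whose longest coding transcript spans chr13:23684199-23692908 on the plus strand, differs from these. That transcript has 2 exons, 742 bases after the coding end and no match to the looser core. A polyadenylation hexamer, AATAAA or ATTAAA, stood in the last 50 bases of the annotated transcript in 17 of 67 genes, among them Hist1h1c, Hist3h2a, Hist1h4i and Hist1h4h. It was absent there from the other measured genes, Hist1h2bc, Hist1h2ac and Hist1h2ap. Genes without the hexamer held 57.6% of histone UMIs in the control and 50.3% in the knockout library. Its share over other protein-coding transcripts was not counted.

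**Figure D1:**
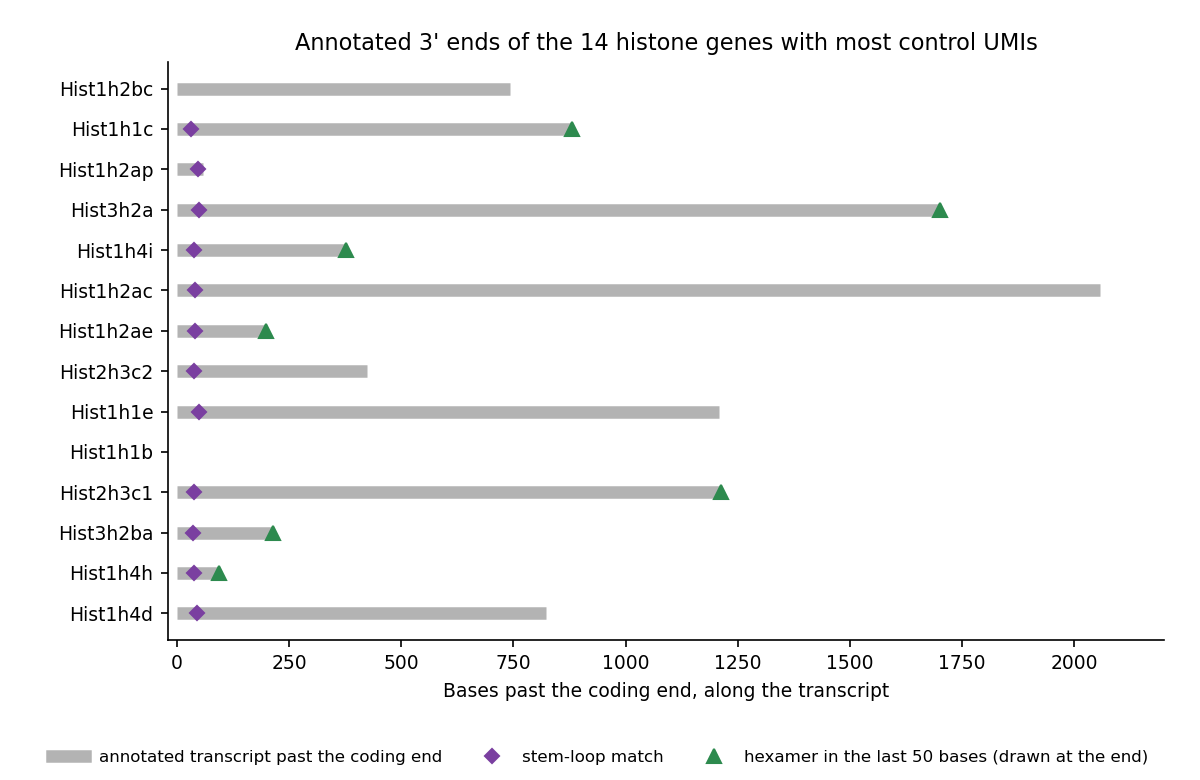
Annotated 3′ ends of the 14 histone genes with the most control UMIs. The x axis gives bases past the coding end along the transcript, grey bars the annotated transcript, diamonds the stem-loop core and triangles a polyadenylation hexamer in the last 50 bases. Hist1h2ap ends 3 bases after its core, Hist1h2ac runs on for 2010 bases, and Hist1h2bc has no core in its transcript.

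Most histone tags lay on genes with long annotated ends, and most of these on Hist1h2bc, Hist1h1c and Hist3h2a. These genes had 10856, 6611 and 4244 of the 26995 control UMIs of the long group described next. In the knockout library they had 15364, 12118 and 3996 of 36250. The 31 genes whose annotated transcript runs 100 bases or more past the coding end held 82.7% of histone UMIs in the control and 92.5% in the knockout library. The other 36 genes held 17.3% and 7.48%, with a median level of 0.277 CPM in the control against 1.71 CPM for the long group. How much of this is polyadenylation and how much is counting within annotated ends was not tested.

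Histone genes together stood at 476 CPM (95% Poisson interval 471 to 481) in the control and 1049 CPM (1038 to 1059) in the knockout library. That is 0.0476% and 0.105% of all UMIs, and 2.20-fold more in the knockout library, a log2 ratio of 1.14 (1.12 to 1.16). All intervals given here are at 95% and cover counting error only, not the spread between cultures. Without the cells of shared barcodes the log2 ratio was 0.99. In sums over cells like these, more cells that carry a message and more message per cell cannot be told apart. Shares of cells with a UMI are given below for single genes.

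A gene was called measured at 10 CPM or more in at least 1 library, and higher or lower at 1.5-fold or more, which is a size rule and not a test. Of the 67 genes, 7 were measured, and 6 of these 7 were higher and none lower in the knockout library, where 8.06% of 7912 measured genes were higher and 10.7% lower. Hist1h2ac and Hist1h4h passed the minimum only through the knockout library, where they are high, so they could not have been counted as lower. Of the 5 that passed in both libraries 4 were higher, beside 5.55% of 7116 genes. The 7 held 86.4% and 91.3% of all histone UMIs, and their median log2 ratio was 1.12, beside -0.061 for all measured genes. The remaining 60 genes were under 10 CPM in both libraries, 24 of them at 1 CPM or more in at least 1 library and 36 below it, and Hist1h4m, Hist1h2bq and Hist1h2ba, named because they had no UMI in either library, are among the latter. At a minimum of 1 CPM, 17 of 31 histone genes were higher and 1 lower, beside 13.1% and 11.8% of 11885 genes, and their median log2 ratio was 0.79. Several of the 31, such as Hist1h2br (0.525 and 1.31 CPM), passed 1 CPM only through the knockout library and could not have been counted as lower. Hist1h2bj (1.03 and 0.990 CPM) passed only through the control library and could not have been counted as higher. The counting interval of the ratio lay above 0 for 26 of the 67 genes and below 0 for Hist1h2ap, Hist1h1e and Hist1h1b. The same count was not made over all genes, so it cannot be read as particular to the histone genes.

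**Figure D2:**
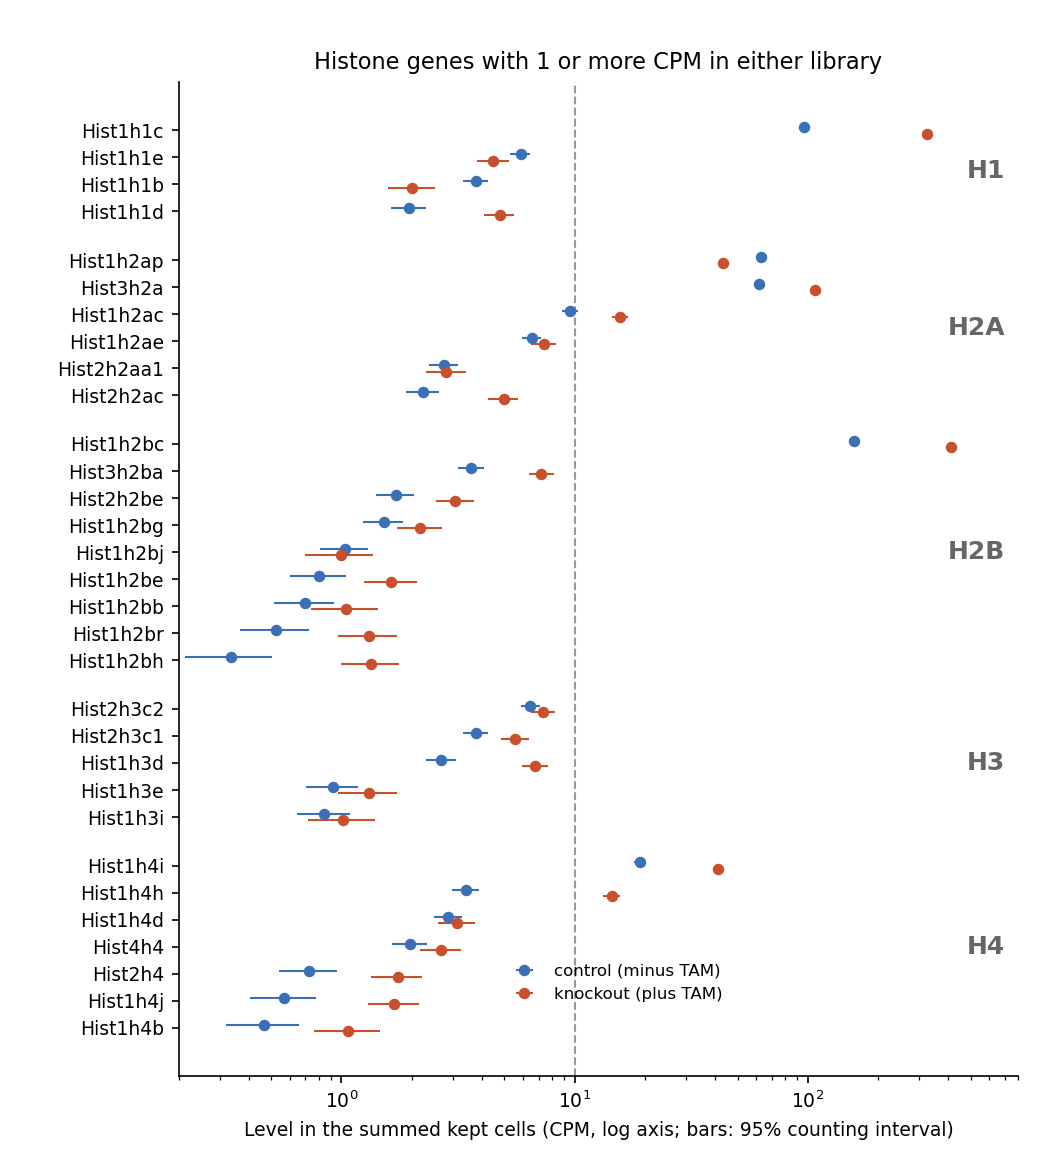
Levels of the 31 histone genes with 1 CPM or more in either library. Points give CPM in the summed kept cells of the control and the knockout library on a log axis, bars the 95% counting interval, and the dashed line the 10 CPM minimum. Hist1h2bc (158 and 411 CPM) and Hist1h1c (96.4 and 324 CPM) lie farthest to the right, and Hist1h2ap lies lower in the knockout library.

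The linker histone class H1 went from 108 CPM in the control to 336 CPM in the knockout library, a log2 ratio of 1.63 (1.59 to 1.67). Nearly all of it was Hist1h1c, the gene of linker histone H1.2, with 88.9% and 96.6% of the class. Hist1h1c stood at 96.4 CPM (94.1 to 98.7, 6611 UMIs) and 324 CPM (319 to 330, 12118 UMIs). It was 3.37-fold higher in the knockout library, a log2 ratio of 1.75 (1.71 to 1.80). The other 5 H1 genes summed to 12 and 11.5 CPM, a log2 ratio of -0.063. They went in different directions: Hist1h1e, the gene of H1.4, stood at 5.86 and 4.47 CPM (-0.39), while Hist1h1b, the gene of H1.5, stood at 3.78 and 2.01 CPM (-0.91) and Hist1h1d, the gene of H1.3, at 1.95 and 4.76 CPM (1.29). The last 2 are named after their values were seen, and the annotated transcript of Hist1h1b ends at its coding end.

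The H2B class went from 170 to 433 CPM (log2 1.34, 1.31 to 1.38), and it too rested on 1 gene. Hist1h2bc held 92.8% and 95.02% of the class and was the most tagged histone gene of both libraries. It stood at 158 CPM (155 to 161, 10856 UMIs) in the control and 411 CPM (405 to 418, 15364 UMIs) in the knockout library, 2.60-fold higher, a log2 ratio of 1.38 (1.34 to 1.41). The other H2B genes summed to 12.2 and 21.6 CPM (0.82), and Hist3h2ba among them stood at 3.60 and 7.20 CPM. Without the cells of shared barcodes Hist1h2bc stood at 162 and 382 CPM (1.23) and Hist1h1c at 96.9 and 268 CPM (1.47).

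Class H2A moved least, from 149 to 185 CPM (log2 0.32, 0.27 to 0.36), and its members went in different directions. Hist1h2ap stood at 62.9 CPM (61.1 to 64.8, 4317 UMIs) in the control and 43.3 CPM (41.2 to 45.4, 1616 UMIs) in the knockout library, 1.45-fold lower and just short of the size rule. Without the cells of shared barcodes it had 55.0 and 35.9 CPM, which on the log2 scale is -0.61 in place of -0.54, and was then counted as lower. Hist1h2ap is also the measured gene with the most sequence in common with others: 92.4% of the 90-base words of its transcript occur in another histone gene, so reads from other genes may be counted for it, or its own discarded, and its level is uncertain. For comparison, the share of such words was 26.1% for Hist1h2bc, 5.71% for Hist1h1c and 0.0972% for Hist3h2a.

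Hist3h2a, on chromosome 11 away from the large clusters, stood at 61.9 CPM (60.0 to 63.8) and 107 CPM (104 to 110), 1.73-fold higher in the knockout library. Its gene overlaps Trim17 on the same strand and Gm44313 on the opposite one, so its tags may include theirs. Hist1h2ac stood at 9.58 and 15.7 CPM, on the log2 scale 0.71 apart (0.55 to 0.87), and overlaps Gm24991 on the same strand and Gm44350 on the opposite one. Hist1h2ae stood at 6.53 and 7.36 CPM, a difference within counting error (0.17, -0.05 to 0.39). Without Hist1h2ap, the H2A class had a log2 ratio of 0.73.

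Class H4 went from 30.5 to 69.1 CPM (log2 1.18, 1.10 to 1.27) and differed in the same direction with or without its leading gene. Hist1h4i stood at 19.0 CPM (18.02 to 20.1) and 41.3 CPM (39.2 to 43.4), 2.17-fold higher. Hist1h4h stood at 3.41 CPM (2.99 to 3.88, 234 UMIs) and 14.4 CPM (13.2 to 15.7, 538 UMIs), 4.22-fold higher, and passed the minimum through the knockout library alone. H3 had no measured gene and went from 18.1 to 25.7 CPM (0.51, 0.39 to 0.63). Within it Hist2h3c2 stood at 6.46 and 7.33 CPM, Hist2h3c1 at 3.76 and 5.57 CPM and Hist1h3d at 2.68 and 6.77 CPM. With Hist1h2bc and Hist1h1c set aside, all other histone genes summed to 221 and 313 CPM, with a log2 ratio of 0.50 against 1.14 for the whole set.

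To relate the tags to the cell cycle, cells with 5000 or more UMIs were thinned at random to 5000 UMIs and sorted by the summed UMIs of 38 S phase genes, such as Pcna and Mcm5, and 51 G2 and M phase genes, such as Cdk1 and Birc5. No histone gene of the 67 is on either list. High G2/M cells had 12 or more G2/M UMIs, which is the 75th percentile over both libraries, and high S cells had 7 or more S UMIs and were not high in G2/M. Low cells were under the median of both, and the rest lay between. These are ranges and not cell types, and 311 control and 68 knockout cells lay within 1 UMI of the S limit and 259 and 100 within 1 UMI of the G2/M limit.

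The libraries differed in these ranges. In the control library 536 of 2487 cells (21.6%) were low, 294 (11.8%) high S and 791 (31.8%) high G2/M. In the knockout library 616 of 1387 cells (44.4%) were low, 59 (4.25%) high S and 233 (16.8%) high G2/M. Of the 31 measured S phase genes 29 were lower and none higher (median log2 -1.19), among them Ung, a uracil DNA glycosylase (41.0 and 13.1 CPM), and Prim1, a primase subunit (39.0 and 14.2 CPM). Of the 41 measured G2 and M phase genes 29 were lower and none higher (median -0.71), among them Ckap2 (42.9 and 14.1 CPM) and the kinase gene Nek2 (16.7 and 7.04 CPM). Over all measured genes 10.7% were lower. However, 9 of the S phase and 11 of the G2 and M phase genes, Nek2 among the latter, passed the minimum only through the control library. These could not have been counted as higher. Of those that passed in both libraries, 20 of 22 S phase and 19 of 30 G2 and M phase genes were lower, beside 8.92% of 7116 genes.

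Median depth was 23348 UMIs in low, 24554 in high S and 28877 in high G2/M control cells. All histone genes together stood at 625, 218 and 494 CPM in these ranges of the control. In the knockout library they stood at 1064, 389 and 1167 CPM, so of these ranges high S was lowest in both. The high S range leaves out cells that are also high in G2/M, so it does not stand for all S phase cells. The 588 control cells high in both lists had a median of 15 S UMIs, against 9.5 in high S cells, and 473 histone CPM. The 113 such knockout cells had a median of 13, against 10, and 1042 CPM.

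The histone genes fell into different patterns over the ranges. Of low, high S and high G2/M cells, the low ones had the highest levels of Hist1h2bc and Hist1h1c in both libraries. In the control library Hist1h2bc stood at 281 CPM in low, 80.5 CPM in high S and 82.0 CPM in high G2/M cells. Its knockout values in these ranges were 437, 141 and 372 CPM. Hist1h1c stood at 171, 45.6 and 47.2 CPM in the control and 384, 104 and 196 CPM in the knockout library. Each of these 6 levels of Hist1h1c and Hist1h2bc was thus higher in the knockout library than in the same range of the control. For Hist1h2bc and Hist1h1c the log2 ratios were 0.63 and 1.16 in low, 0.81 and 1.19 in high S, and 2.18 and 2.05 in high G2/M cells. The high G2/M ratios also hold a difference in makeup, as 588 of 791 control but 113 of 233 knockout cells were also high in S. Hist1h1c stood at 30.5 and 96.6 CPM in the control and knockout cells high in both lists. In cells high in G2/M alone it stood at 94.8 and 292 CPM.

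Hist1h2ap had the opposite pattern. It stood at 6.25 CPM in low, 4.85 CPM in high S and 170 CPM in high G2/M cells of the control, and at 4.73, 2.46 and 200.4 CPM in the knockout library. The knockout value in high S cells rests on 4 UMIs. Within high G2/M cells Hist1h2ap was slightly higher in the knockout library (log2 0.24, 0.15 to 0.33, and 0.13, 0.025 to 0.24, without the cells of shared barcodes), although it was lower over all kept cells. Here too, a smaller share of the knockout cells of this range was also high in S. A UMI of Hist1h2ap was found, after thinning, in 3.54% of low, 3.40% of high S and 34.6% of high G2/M control cells, and in 2.11%, 0% and 37.8% of knockout cells. The 0 of 59 high S knockout cells allows a share of up to 5.08% of cells with a UMI at the thinned depth, which is no limit on cells that express the gene, and the unthinned counts of these cells held 4 UMIs. No class of cells that lacks the gene was at hand, so the low range is the nearest measure of background from free RNA.

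High G2/M cells were also split by whether their S phase UMIs reached the limit, a division made after seeing the data. Hist1h2ap was highest where both lists were high, with 207 CPM (200.3 to 214) in 588 control and 320 CPM (302 to 339) in 113 knockout cells. In cells high in G2/M alone it stood at 63.9 CPM in 203 control and 84.4 CPM in 120 knockout cells. Cells high in S alone, as above, stayed at the level of low cells. The top 10% of cells held 83.8% of control and 93.8% of knockout Hist1h2ap UMIs, beside 49.4% and 38.2% for Hist1h2bc. Hist1h2bc had its lowest control level, 42.7 CPM, in the cells high in both, where Hist1h2ap was highest, and stood at 80.5 CPM in S alone and 194 CPM in G2/M alone. In knockout cells these levels were 200 CPM (186 to 215), 141 CPM and 539 CPM (516 to 563), so cells high in G2/M alone exceeded low cells (437 CPM, 426 to 447) there.

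**Figure D3:**
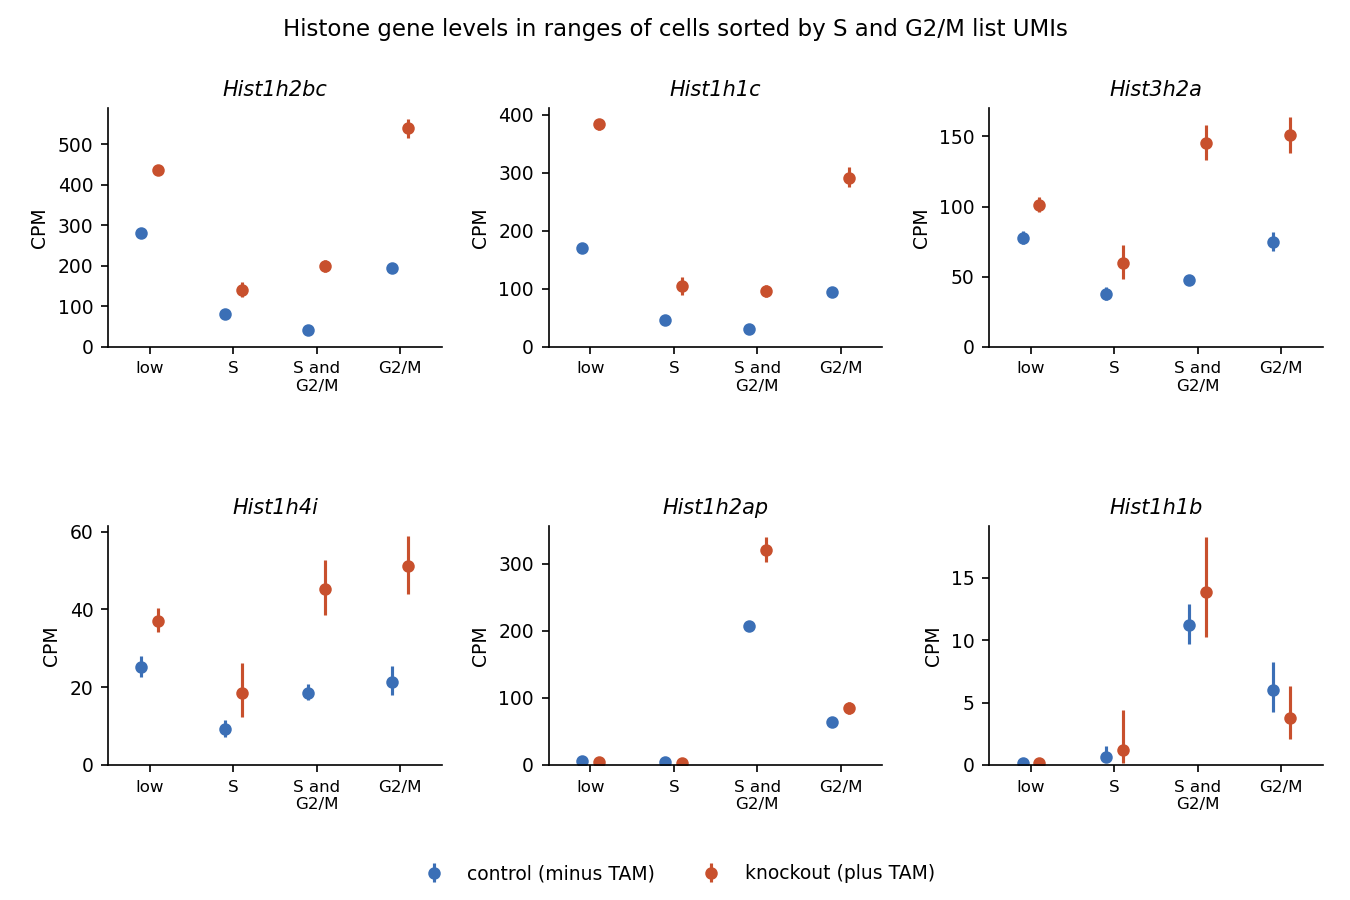
Histone gene levels in 4 ranges of cells: low in both lists, high in S alone, high in S and G2/M, and high in G2/M alone. Points give CPM in the control and knockout library and bars the 95% counting interval. Hist1h2ap peaks in cells high in both lists (207 and 320 CPM), while Hist1h2bc is lowest there in the control library (42.7 CPM).

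Hist3h2a and Hist1h4i varied less over the ranges. Hist3h2a stood at 77.8 CPM in low, 38.03 in high S and 54.7 in high G2/M control cells, and at 101, 59.5 and 148 CPM in the knockout library. Hist1h4i stood at 25.2, 9.18 and 19.4 CPM in the control and 37.1, 18.4 and 48.1 CPM in the knockout library. For both, high G2/M cells were under low cells in the control and above them in the knockout library. Hist1h1b, named after its values were seen, resembled Hist1h2ap: 0.144 CPM in low, 0.656 in high S and 9.87 in high G2/M control cells, and 0.192, 1.23 and 8.73 CPM in the knockout library, with 2 to 5 UMIs behind each level outside high G2/M.

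When the control cells were weighted so that the 4 ranges had the knockout shares, the log2 ratio of all histone genes went from 1.14 to 0.997. Hist1h2bc went from 1.38 to 1.01, Hist1h1c from 1.76 to 1.38, Hist3h2a from 0.79 to 0.65 and Hist1h4i from 1.12 to 0.97, all over cells with 5000 or more UMIs. Hist1h2ap changed sign, from -0.54 to 0.23. The shares of the ranges thus entered the totals, and differences remained once these shares were evened out. The weights do not even out the makeup within a range. Of the high G2/M cells, 588 of 791 in the control and 113 of 233 in the knockout library were also high in S. The remaining differences are thus not of levels alone, and what sets them was not tested.

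Of the histone genes, 23 had 50 or more control UMIs in low and high G2/M cells together, and they were grouped after seeing the data by the difference between these ranges. Hist1h2bc and Hist1h1c were 2-fold or more lower in high G2/M than in low control cells, and both were higher in the knockout library. The 12 genes within 2-fold had log2 ratios of knockout over control from 0.037 to 2.08, with a median of 0.82. The 9 genes 2-fold or more higher in high G2/M cells, among them Hist1h2ap, Hist1h2ae, Hist2h3c2, Hist1h1e and Hist2h3c1, ranged from -0.91 to 1.29 with a median of -0.063. Most of these genes are under 10 CPM in both libraries, and they were admitted on control UMIs alone. Both axes use the control counts, so the relation is a description only.

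**Figure D4:**
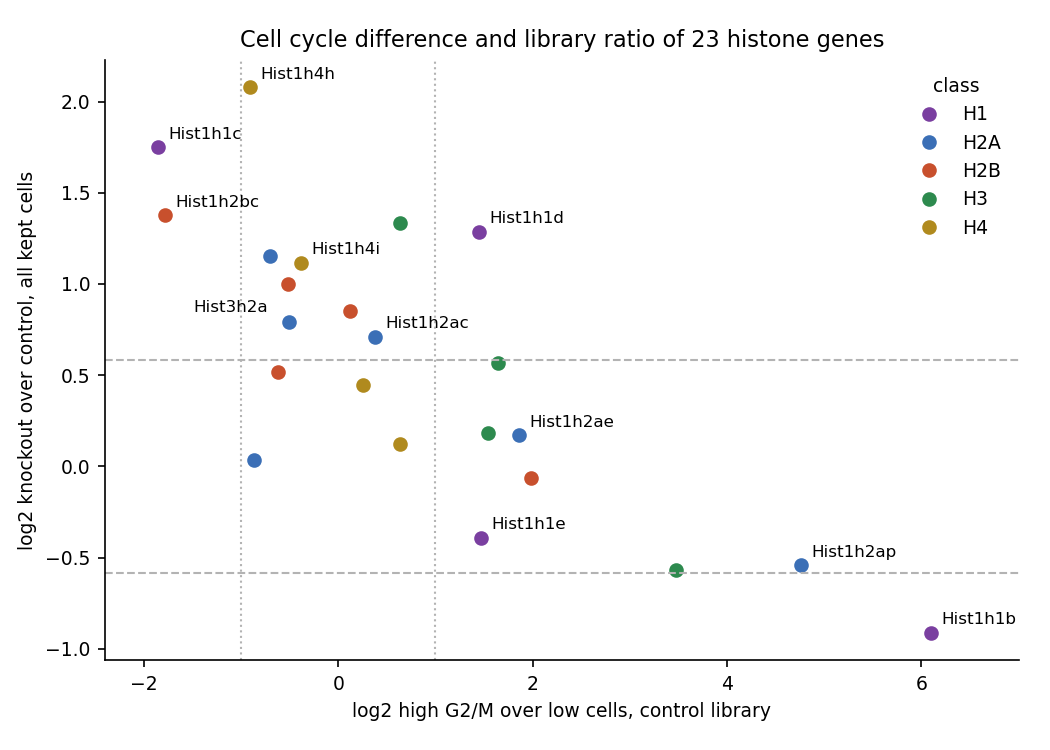
Cell cycle difference and library ratio of 23 histone genes, coloured by class. The x axis gives the log2 ratio of high G2/M over low cells in the control library and the y axis the log2 ratio of knockout over control in all kept cells. Hist1h2bc and Hist1h1c lie at the upper left, and Hist1h2ap (4.76 on x, -0.54 on y) at the lower right.

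Ranking the cells of each library into 5 equal groups (quintiles) by the share of their UMIs on the S phase list gave the levels without fixed limits. Here, unlike in the high S range, the top cells of the S ranking include those that are also high in G2/M. From the lowest to the highest quintile, Hist1h2bc went from 287 to 28.3 CPM in the control and from 516 to 236 CPM in the knockout library. Hist1h1c went from 178 to 26.3 CPM and from 438 to 112 CPM. Hist1h2ap went the other way along this ranking, from 7.12 to 206 CPM in the control and from 4.25 to 165 CPM in the knockout library. Ranked by G2 and M genes it stood between 4.41 and 8.95 CPM in the 4 lower control quintiles and at 254 CPM in the highest, and between 4.08 and 5.59 CPM and at 176 CPM in the knockout library. Hist3h2a went from 78.4 to 37.4 CPM along the S ranking in the control but from 86.2 to 124 CPM in the knockout library.

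**Figure D5:**
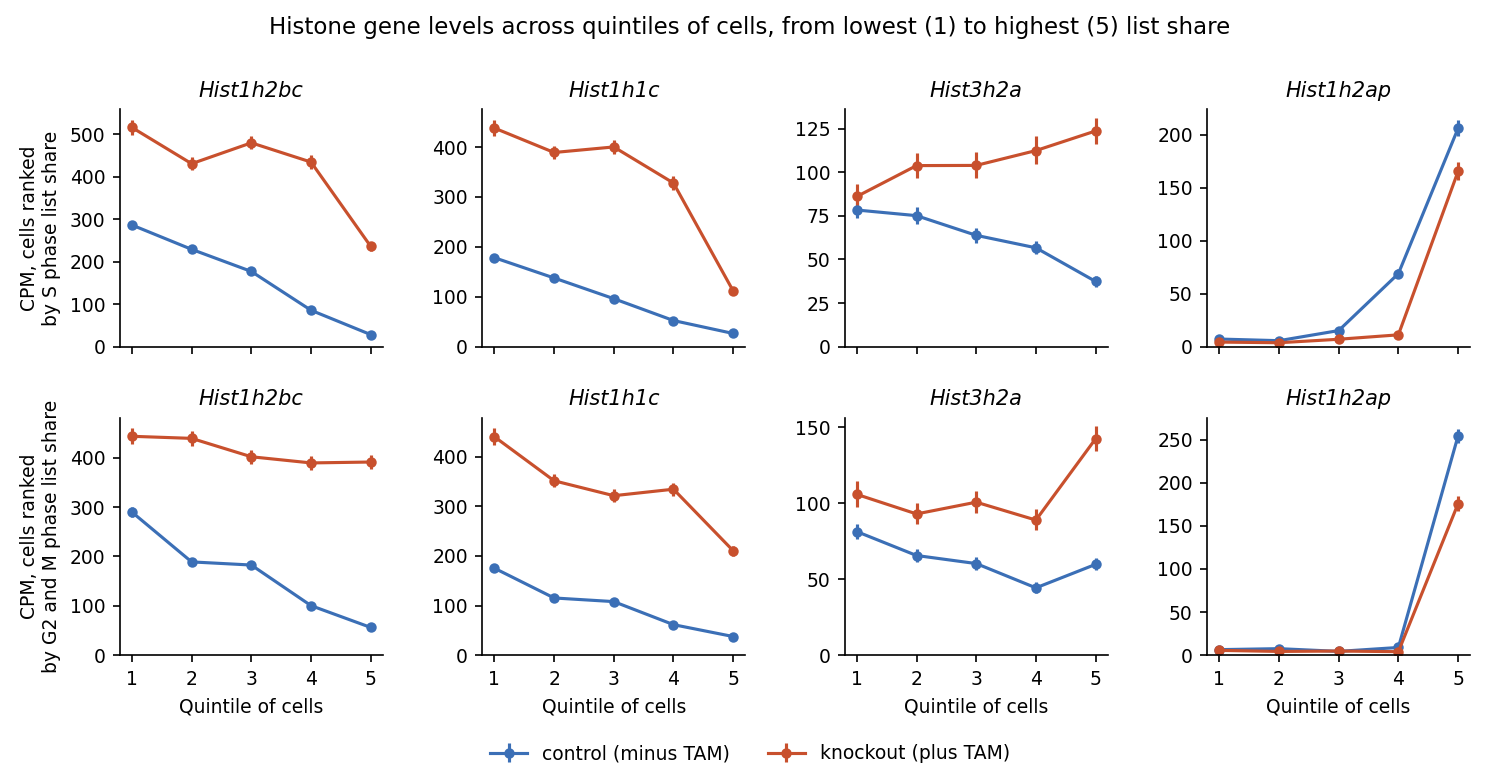
Histone gene levels across quintiles of cells ranked by the share of S phase UMIs (upper row) or G2 and M phase UMIs (lower row), from lowest to highest. Points give CPM of the control and knockout library with 95% counting intervals. Hist1h2ap is high only in the top quintile of the G2 and M ranking (254 and 176 CPM), while Hist1h2bc is lower along the S ranking (287 to 28.3 and 516 to 236 CPM).

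Coefficients across cells, given as a description over 2487 control and 1387 knockout cells that share a library, were highest for Hist1h2ap. With the G2 and M list, Hist1h2ap had a Pearson coefficient of 0.50 in the control and 0.54 in the knockout library, and with the S list 0.37 and 0.41. The 99th percentile over all measured genes was between 0.25 and 0.28 for these lists. Hist1h2bc had -0.36 and -0.25 with the S list and Hist1h1c -0.28 and -0.24, with Spearman coefficients of -0.38 and -0.23 and of -0.27 and -0.23. Hist3h2a had -0.15 and 0.013 with the S list, and Hist1h4i, with 198 and 285 thinned UMIs, -0.05 and 0.02.

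Among 2710 genes of 50 CPM or more in both libraries, the gene with the pattern most like that of Hist1h2bc across cells was Hist1h1c (0.38 and 0.42). Mt4, a metallothionein gene (0.21 and 0.18), and Vim, which encodes vimentin (0.20 and 0.18), followed. For Hist1h1c the next were Hist3h2a (0.17 and 0.16) and Tspan1 (0.07 and 0.26). For Hist3h2a they were Hist1h2bc (0.20 and 0.17), Hist1h1c and Vim (0.13 and 0.17). Hist1h2ap was most like Birc5, which encodes survivin (0.49 and 0.54), Hmgb2 (0.46 and 0.50), both on the G2 and M list, and the tubulin gene Tuba1b (0.46 and 0.48). Hist1h2ap and Hist1h2bc had coefficients of -0.15 and -0.14 with each other.

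A UMI of the leading genes was found in a larger share of knockout cells. After thinning, Hist1h2bc had a UMI in 38.2% of control cells (Clopper-Pearson interval 36.2 to 40.1) and 70.0% of knockout cells (67.5 to 72.4), and Hist1h1c in 28.9% (27.1 to 30.7) and 57.5% (54.9 to 60.2). Without thinning these shares were 69.8% and 90.5% for Hist1h2bc and 58.3% and 83.9% for Hist1h1c. No cells that should lack these genes were at hand, so the part of free RNA in the shares was not measured, and the lowest thinned shares in any of the 3 ranges were 22.1% of control and 37.3% of knockout cells for Hist1h2bc and 17.4% and 32.2% for Hist1h1c. Hist1h2ap was found in 13.6% (12.3 to 15.0005) and 7.93% (6.56 to 9.48) of thinned cells, and in 26.1% and 16.9% of unthinned ones. The share of cells with a tag thus went in the same direction as the total for these 3 genes.

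Genes of cell cycle arrest and of colonocytes, the absorptive cells of the colon, were set beside the histone genes. Over all measured genes 8.06% were higher and 10.7% lower. Of 11 measured arrest genes 3 were higher and none lower (median log2 0.27), namely the inhibitor genes Cdkn2b (67.1 and 123 CPM) and Cdkn1c (33.6 and 57.7 CPM) and Ccng2 (34.9 and 59.6 CPM). The related inhibitor gene Cdkn2d stood at 13.03 and 9.29 CPM, and Cdkn1a, named after its value was seen, at 713 and 607 CPM. Of 9 measured colonocyte genes 6 were higher and 1 lower (median 1.02), with Muc3 at 1.43 and 18.4 CPM, Clca4a at 1.89 and 12.6 CPM, Car1 at 54.9 and 257 CPM and Krt20 at 5.60 and 22.6 CPM. Muc3, Clca4a and Krt20 are among 4 of these genes that passed the minimum only through the knockout library, and of the 4 that passed in both, 2 were higher and none lower. Among all genes that passed in both, 5.55% were higher and 8.92% lower. In the knockout library Hist1h1c was higher where either list was high, from 227 to 535 CPM between the lowest and the highest quintile of cells ranked by arrest genes and from 298 to 434 CPM by colonocyte genes. In the control library the same quintiles gave 74.8 and 108 CPM for arrest and 117 and 102 CPM for colonocyte genes. Across knockout cells Hist1h1c had Pearson coefficients of 0.21 with the arrest and 0.15 with the colonocyte list. For Hist1h2bc, the most tagged histone gene, they were only 0.088 and 0.050. The 95th percentiles over all measured genes were 0.087 and 0.131. The part of either list in the histone totals was not tested.

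Genes that make and process histone messages were for the most part not past the size rule. Of 21 measured genes of histone mRNA synthesis and 3′ end processing 4 were lower and none higher (median -0.35), beside 10.7% lower among all measured genes: Ccne1 and Cdk2, the cyclin and kinase that drive histone gene transcription through NPAT (14.7 and 8.06 CPM, 26.8 and 15.3 CPM), Lsm11, a subunit of the U7 particle that cleaves histone pre-mRNA (16.5 and 9.96 CPM), and Casp8ap2, which encodes the histone locus body protein FLASH (12.7 and 7.92 CPM). Of these, Ccne1, Lsm11 and Casp8ap2 passed the minimum only through the control library, and of the 17 genes that passed in both, 1 was lower, beside 8.92% of all such genes. Slbp, named after its value was seen, stood at 114 and 77.8 CPM (log2 -0.56), short of the size rule. Of 27 measured histone chaperones and assembly factors 9 were lower and none higher (median -0.33), beside 10.7% lower among all measured genes. They were led by Chaf1a and Chaf1b, subunits of the replication-coupled assembly complex CAF-1 (28.2 and 8.86 CPM, 40.5 and 17.2 CPM), Dnajc9 (68.9 and 30.5 CPM) and Mcm2, which is also on the S phase list (76.8 and 36.1 CPM). Chaf1a is 1 of 2 that passed the minimum only through the control library and could not have been counted as higher. Of the 25 that passed in both, 7 were lower, beside 8.92% of all such genes.

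Replication-independent histone variants, whose messages carry poly(A) tails as a rule, were not past the size rule. None of 9 measured variants was higher or lower, and their median log2 ratio was -0.01. H2afj stood at 429 and 614 CPM (0.52), the linker histone gene H1f0 at 272 and 340 CPM (0.32), H2afz at 1234 and 929 CPM (-0.41) and the centromere histone gene Cenpa at 49.6 and 40.6 CPM (-0.29). The variants summed to 6895 and 7176 CPM, so the 67 replication-dependent genes were the smaller pool of tags in both libraries.

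By position, 54 of the 67 genes lie on chromosome 13 between 21715763 and 23934851 (GRCm38) and summed to 390 and 905 CPM. The 10 genes on chromosome 3 summed to 18.1 and 27.1 CPM and the 2 on chromosome 11 to 65.5 and 114 CPM, and Hist4h4 on chromosome 6, named because it is the single one there, stood at 1.97 and 2.68 CPM. Many histone genes are arranged as divergent pairs, and 12 pairs had starts within 500 bases of each other on opposite strands. In 5 of them each gene had 50 or more UMIs over both libraries. The log2 ratios of the partners, named for their position after the values were seen, were 0.71 for Hist1h2ac and 1.38 for Hist1h2bc, -0.54 for Hist1h2ap and 1.32 for Hist1h2br, 0.17 for Hist1h2ae and 0.52 for Hist1h2bg, 1.15 for Hist2h2ac and 0.85 for Hist2h2be, and 0.29 for Hist1h2ag and -0.063 for Hist1h2bj. The counting intervals of the partners overlapped in 3 of the 5 pairs. They did not overlap for Hist1h2ac (0.55 to 0.87) and Hist1h2bc (1.34 to 1.41), nor for Hist1h2ap (-0.62 to -0.46) and Hist1h2br (0.67 to 1.98). Hist1h2br stood at only 0.525 and 1.31 CPM, and 99.8% of its 90-base words occur in another histone gene, so its level is uncertain.

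Promoter sequences were matched for 62 of the 67 genes in RefSeq on GRCm38.p6, as 250 bases before to 50 after the start. The octamer ATTTGCAT, the motif bound by POU2F1, was found on either strand in 13 of 62 (20.97%), 7 H2A and 6 H2B genes, beside 1.74% of 32851 promoters of the same length. CCAAT was found in 53 (85.5%, beside 37.4%), TATAAA in 35 (56.5%, beside 13.6%), and AAACACA, the box of H1 promoters, in 9 (14.5%, beside 7.18%), 5 of them among the 6 H1 genes. The bases before the start are printed for Hist1h1c, the measured H1 gene, and for Hist1h2ac, whose window is the stretch that it shares with the divergent Hist1h2bc 251 bases away. They run 5′ to 3′ on the strand of the named gene, with those 4 motifs of either strand in capitals.
Hist1h1c, chr13:23738557-23738806, plus strand: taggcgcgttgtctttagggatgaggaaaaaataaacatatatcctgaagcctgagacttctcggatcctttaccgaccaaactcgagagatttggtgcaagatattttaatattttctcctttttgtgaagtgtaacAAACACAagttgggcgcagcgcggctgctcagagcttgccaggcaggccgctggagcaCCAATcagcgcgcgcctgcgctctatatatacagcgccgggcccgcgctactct
Hist1h2ac, chr13:23683960-23684209, minus strand: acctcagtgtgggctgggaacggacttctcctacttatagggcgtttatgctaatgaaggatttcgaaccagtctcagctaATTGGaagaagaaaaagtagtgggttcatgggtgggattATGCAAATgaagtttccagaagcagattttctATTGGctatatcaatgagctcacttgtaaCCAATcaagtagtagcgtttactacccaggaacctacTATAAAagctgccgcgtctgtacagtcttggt

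In the window of Hist1h1c the AAACACA box and 1 CCAAT were found, and in that of Hist1h2ac 1 octamer, 3 CCAAT on either strand and 1 TATAAA. A match is a description of the letters and not evidence of a bound factor.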

How the data were processed

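The deposited UMI counts per gene and cell are whole numbers that were not normalized. Per the file headers the authors used Cell Ranger 3.1.0, and mm10 per the submitters' processing notes. The annotation release and the strand setting are not given in the sources used here. The histone genes and the gene lists were chosen with earlier results of these data known. Cells with at least 1000 genes, 2000 UMIs and no more than 20% of UMIs from mitochondrial genes were kept, which removed 931 control and 579 knockout barcodes. Scrublet in scanpy 1.11.5 marked only 1 and 4 cells by its automatic limit, so the highest doublet scores were removed instead, 0.8% for each 1000 cells, or 58 and 18 cells.

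Counts were summed over kept cells and scaled to CPM without a pseudocount, and a count of 0 in a ratio was replaced by a floor of 3 UMIs. Tags of a 3′ assay are counted once per molecule and were not divided by transcript length. Intervals are exact Poisson (CPM), conditional binomial (ratios) and Clopper-Pearson (shares), at 95%. UMIs of a cell share its capture, so intervals cover counting error only. Depth was 68605296 and 37358097 UMIs. The code was tested on simulated data. Named genes were N6amt1, the measured histone genes, up to 6 below with the most UMIs, up to 4 per other list with the largest ratios and the 3 genes most alike across cells for each of 4 histone genes; others are named as chosen later. All 67 genes were found in GENCODE M21 (GRCm38), and the longest coding transcript of each was used. Alternatives were other cell filters, no doublet removal, leaving out shared barcodes, other scalings (edgeR 4.0.16 trimmed mean factors among them), weights, minimum levels, size rules, limits between ranges and thinning depths. No column of another sample was present.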

Additional observations from a re-analysis of the deposited data

How the results depend on the processing

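The log2 ratio of all histone genes, 1.14, was 1.11 with no cell filter, 1.11 with trimmed mean factors and 0.99 without the cells of shared barcodes. Leaving those cells out gave 1.36 for H1, 0.27 for H2A, 1.20 for H2B and 1.04 for H4, and 0.68 in place of 0.77 for all histone genes in low cells. With every cell weighted equally H1 gave 1.59 and H2B 1.30. Without its leading gene, a setting added after seeing the data, H1 turned to -0.063, and H2A gave 0.73, H2B 0.82, H3 0.66 and H4 1.29. The 6 higher genes were 3 at a minimum of 50 CPM and 17 at 1 CPM, and some of the 17 passed through the knockout library alone. No gene was lower in the main setting, and 1 was with no cell filter, with no doublet removal, without shared barcodes, with cells weighted equally and at 1 CPM. In low cells the ratio was 0.89 under the stricter cell filter and 0.81 with no doublet removal. In high S cells it was 0.66 when thinned to 10000 UMIs (0.84 at 5000), and in high G2/M cells 1.33 at the 67th percentile (1.24 at the 75th). The knockout log2 difference of Hist1h2ap between high S and low cells, -0.95 on 4 UMIs, was 0.10 under the stricter filter. Of the alternative values of totals, classes, counts and ranges, 58 stayed within their counting interval or 1.5 times the count, 25 moved and 1 reversed. Of the other alternative values 354, 133 and 1 did. These covered single genes, other gene lists, coefficients, further range values, the number of measured histone genes and the median of all measured genes. Coefficients were judged by their own interval, and values without a counting interval by a fixed window on the log2 scale. Where not shown by the setting itself, the cause was not tested. No paired analysis was possible because each group is 1 library, and for the same reason no replicate could be left out. Depth limits the 36 genes under 1 CPM and the 59 high S knockout cells.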
